A study of Schizosaccharomyces pombe with 6 samples.

Results

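The comparison described here set fission yeast (Schizosaccharomyces pombe) cells lacking red1 directly against cells lacking mug174, without WT as the reference. It used 4 of the 6 RNA sequencing libraries of the study, 2 of red1Δ and 2 of mug174Δ, and took in every feature of the deposited table with at least 1 RPKM in at least 2 of the 6 libraries, which were 5949 of 7001 features. RPKM are the reads of a feature divided by its length in kilobases and by the library total of counted reads. The study asked how Mug174, a protein that it identified as a nuclear condensate component related to coilin, acts on nuclear RNA, and it set cells without Red1, an RNA elimination factor, beside cells without Mug174. All strains were grown vegetatively in rich YES medium at 32 °C with no further treatment, and no sorting was done. The genotype labels read WT, mug174 deletion and red1 mutation, and the titles name the last of these red1Δ. The series design calls the libraries biological replicates without saying whether they came from separate cultures, and the p-values reflect no more than their spread, which may be technical. The labels give no other allele for either mutant, and none of the libraries is of a rescued strain.

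Red1 is a zinc finger protein and a core subunit of MTREC, the complex that joins the RNA helicase Mtl1 with the nuclear exosome. In vegetative cells, the YTH family protein Mmi1 binds meiotic transcripts at clusters of a short UNAAAC sequence, and MTREC and the exosome then degrade them. The same machinery acts on non-coding RNAs, including snoRNA precursors and the upstream RNAs that keep phosphate genes silent. Mug174 resembles coilin, the scaffold of Cajal bodies, nuclear bodies where small RNA-protein particles mature.

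The labels were checked with the deleted genes. The mug174 gene had 26.05 and 24.6 scaled RPKM in red1Δ, against 1 and 0 reads in mug174Δ. The red1 gene had 98.5 and 83.2 scaled RPKM in mug174Δ, against 1 and 2 reads in red1Δ. Scaled RPKM are RPKM divided by a median ratio factor of each library, which was 1.09 and 1.18 in red1Δ, 0.997 and 0.995 in mug174Δ, and 0.890 and 0.873 in WT. The libraries held 16565908 to 18627129 counted reads. The red1Δ libraries differed more from each other than did those of the other strains, with a root mean square SD of 0.296 on the log2 scale against 0.203 in mug174Δ and 0.208 in WT. Ribosomal RNA took 2.87% and 2.97% of reads in red1Δ and 4.71% and 3.85% in mug174Δ. Of 7 markers of meiotic or sporulating cells, 4 were tested and mei4 alone was called. The markers dmc1, rec12 and meu14 were listed at 0 in every library, and spo6, mde10 and isp3 did not pass the test. The summed level of the 7 markers was 241 and 261 scaled RPKM in red1Δ and 110.2 and 110.1 in mug174Δ, and without mei4, which is itself an Mmi1 target, it was 105 and 112 against 99.6 and 99.3. In bulk RNA, more cells of a type and more RNA per cell cannot be told apart.

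Many transcripts separated the mutants. In red1Δ, 439 features were higher than in mug174Δ, which is 7.38% of those tested, and 336 were lower, or 5.65% (limma on log2(scaled RPKM + 0.5), 2-sided, Benjamini-Hochberg adjusted p under 0.05). The red1Δ values lay above both mug174Δ libraries for 30.7% of all features and below both for 31.9%. The directions differed in kind. Of the higher features, 226 were protein-coding and 172 were lncRNAs, and 25 had a log2 difference above 3. Of the lower features, 285 were protein-coding and 38 were lncRNAs, and 9 passed a log2 difference of 3 in size. The median size of the called differences was 0.97 on the log2 scale for the higher and 0.63 for the lower features. The WT mean lay below both mutant means for 235 of the higher features and between them for 170. Of the lower features it lay between the mutants for 176 and above both for 109, while over all features tested it was below both in 37.8%, between in 25.5% and above both in 36.8%. The called features were spread over the chromosomes, with 7.30% of the features of chromosome I, 7.20% of chromosome II and 8.02% of chromosome III higher in red1Δ.

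The counts depended on the scaling and on single libraries. Without scaling, 958 features were higher and 195 lower, so that 83.1% of the calls were higher in place of 56.6%, because the median difference of all features moved from -0.01 to 0.18. Leaving out a library gave 144 higher and 67 lower without mug174Δ replicate 1, 100 and 42 without mug174Δ replicate 2, 766 and 971 without red1Δ replicate 1, 196 and 207 without red1Δ replicate 2, 259 and 164 without WT replicate 1, and 267 and 174 without WT replicate 2. No called feature named here changed direction under any of 17 alternative fits.

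**Figure D1:**
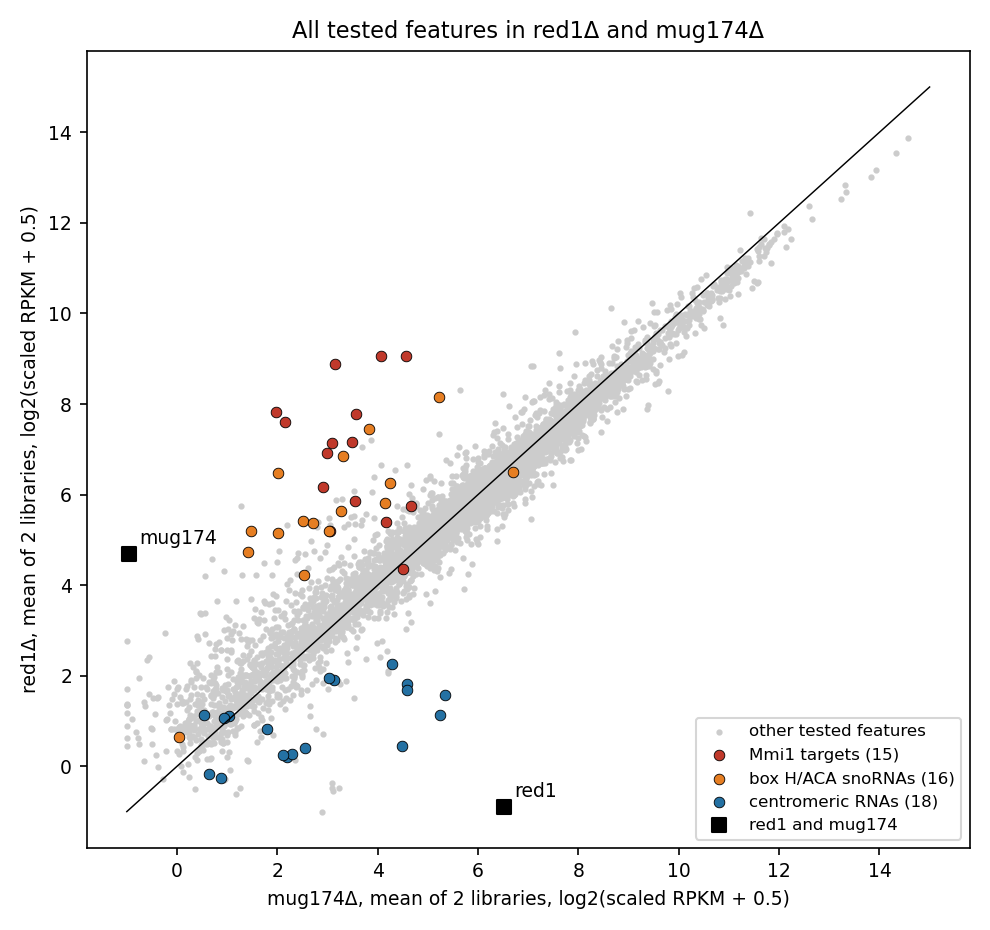
Each point is a tested feature, with its mean level in mug174Δ on the horizontal axis and in red1Δ on the vertical axis, both as log2(scaled RPKM + 0.5) over 2 libraries. The 439 features higher in red1Δ lie above the diagonal and the 336 lower features below it, and the Mmi1 targets form the group farthest above it.

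Meiotic transcripts gave the greatest differences. Of 18 RNAs listed as Mmi1 targets, 15 were tested, 14 were higher in red1Δ and 0 were lower, and their median log2 difference was 3.93 against -0.01 over all features. The 14 calls held in every alternative fit except that without mug174Δ replicate 2, which gave 13. The summed level of the list was 2769 and 2954 scaled RPKM in red1Δ, 179 and 188 in mug174Δ, and 103 and 137 in WT. Every library of red1Δ lay above every other library, and mug174Δ lay above WT by far less.

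The rec8 gene encodes the kleisin subunit of meiotic cohesin. It had 229 and 226 scaled RPKM in red1Δ and 2.66 and 4.19 in mug174Δ, while WT had 2.29 and 5.32. Every red1Δ value lay far above every mug174Δ value, with a log2 difference of 5.89 ± 0.35 (SE; adjusted p = 0.00048). The mug9 gene, known by its meiotic induction, had 474 and 476 in red1Δ against 6.67 and 9.99 in mug174Δ, a log2 difference of 5.78 ± 0.33. The spo5 gene, for an RNA-binding protein needed in meiosis and sporulation, had 188 and 198 against 2.99 and 4.94 (5.47 ± 0.32). Both red1Δ libraries lay above both mug174Δ libraries for each of these genes, as they did in 30.7% of all features. The mug174Δ values lay near those of WT.

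The mei4 gene codes for the forkhead transcription factor of middle meiosis. Its level was 136 and 149 scaled RPKM in red1Δ and 10.6 and 10.9 in mug174Δ, a log2 difference of 3.67 ± 0.12 (adjusted p = 4.4e-05). The ssm4 gene, for a dynactin subunit that drives nuclear movement in meiotic prophase, had 123 and 119 against 7.49 and 7.48 (3.93 ± 0.12). The sme2 gene gives the lncRNA meiRNA, which in meiosis captures Mmi1, and it had 125 and 155 against 9.17 and 6.80 (4.05 ± 0.18). These 3 genes had small errors, and the values of each strain were close together. The partners mcp7 and meu13, which act in pairing of homologous chromosomes, had unequal levels in red1Δ. The level of mcp7 was 541 and 519.6 in red1Δ against 16.7 and 29.8 in mug174Δ (4.54 ± 0.29), and that of meu13 was 47.8 and 67.5 against 12.5 and 10.0 (2.29 ± 0.22).

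The remaining Mmi1 targets covered a wide range. The mug8 gene had 481 and 586 scaled RPKM in red1Δ against 17.3 and 15.4 in mug174Δ (log2 difference 4.98), and mug10 had 213 and 226 against 11.5 and 11.3 (4.21). The meiotic cyclin gene crs1 followed with 68.5 and 74.2 against 7.71 and 6.28 (3.27), and meu32 with 33.9 and 38.7 against 6.88 and 8.79 (2.15). The smallest called differences were those of dli1, a dynein light intermediate chain gene (36.4 and 46.1 against 18.7 and 16.1, 1.21), and rec10, a gene of the meiotic chromosome axis (55.2 and 51.5 against 25.1 and 24.9, 1.08). For dli1 and rec10 the mug174Δ levels were themselves above the WT levels, which were 3.85 and 4.45 for dli1 and 8.78 and 7.50 for rec10. The spore wall glucan synthase gene bgs2 did not pass the test, with 17.8 and 22.1 in red1Δ and 23.4 and 21.1 in mug174Δ (adjusted p = 0.46).

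**Figure D2:**
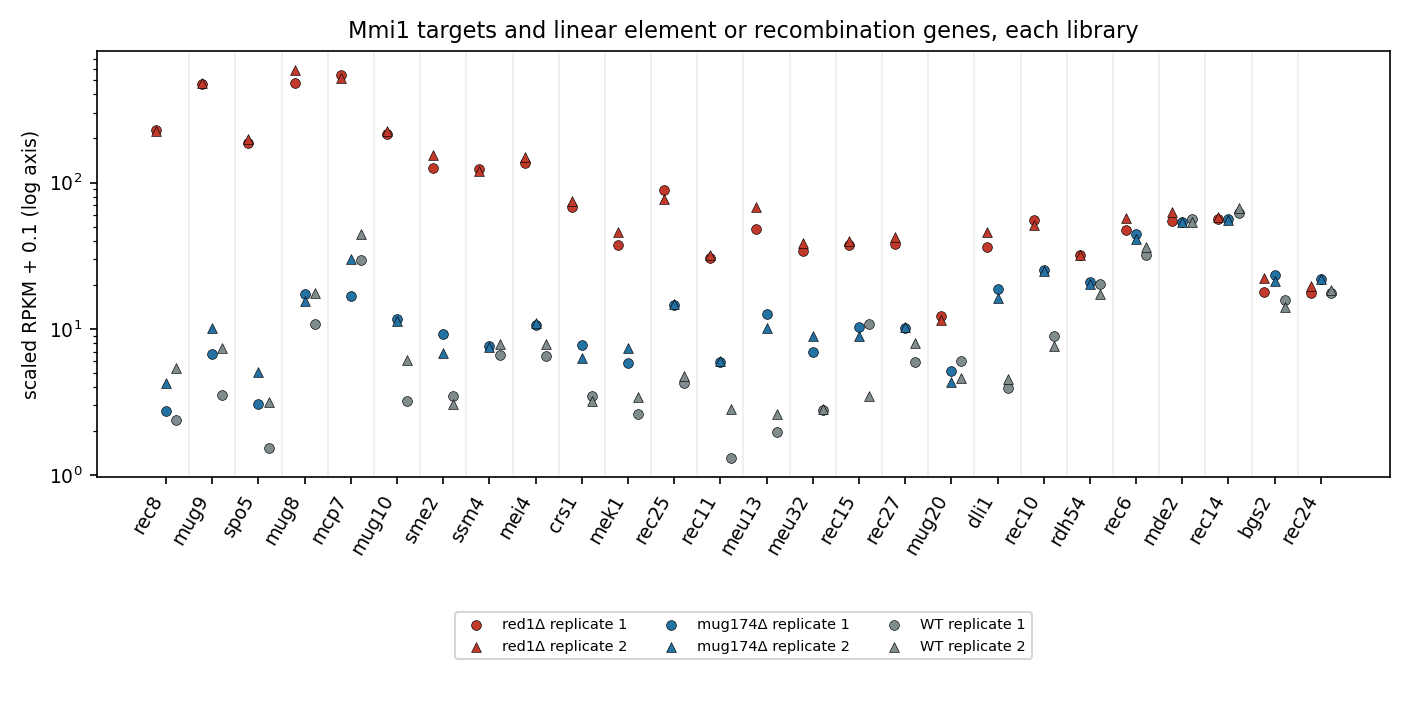
Levels of the tested Mmi1 targets and genes for linear elements and recombination in each library, as scaled RPKM + 0.1 on a log axis, with circles for replicate 1 and triangles for replicate 2 of each strain. The red1Δ points of rec8 lie near 229 and the mug174Δ points under 5, whereas the points of bgs2 overlap between the mutants.

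The sequence that Mmi1 recognises was counted in these genes. The letters TNAAAC (N any base, U in place of T in the RNA) were searched on the sense strand of each feature's genomic span, introns included, in the ASM294v3 assembly of RefSeq. Stretches of coding exon of rec8 and mug9, whose levels differed most among the targets, and of mei4, with 8 sites in its densest 300 bases, are shown, with the TNAAAC sites in capitals. The rec8 stretch is II:2570130-2570331 on the plus strand, the mei4 stretch II:1473719-1474017 on the plus strand, and the mug9 stretch III:2369128-2369409 on the minus strand.
rec8: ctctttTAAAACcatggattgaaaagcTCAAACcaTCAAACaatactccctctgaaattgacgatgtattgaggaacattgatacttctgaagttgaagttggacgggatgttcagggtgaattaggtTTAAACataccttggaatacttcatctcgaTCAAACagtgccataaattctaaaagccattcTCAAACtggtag
mei4: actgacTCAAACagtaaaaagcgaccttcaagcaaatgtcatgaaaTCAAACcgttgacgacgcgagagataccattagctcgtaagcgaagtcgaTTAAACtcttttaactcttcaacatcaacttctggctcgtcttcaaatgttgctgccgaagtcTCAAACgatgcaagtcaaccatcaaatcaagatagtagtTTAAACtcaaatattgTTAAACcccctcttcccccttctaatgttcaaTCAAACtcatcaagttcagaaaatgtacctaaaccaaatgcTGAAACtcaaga
mug9: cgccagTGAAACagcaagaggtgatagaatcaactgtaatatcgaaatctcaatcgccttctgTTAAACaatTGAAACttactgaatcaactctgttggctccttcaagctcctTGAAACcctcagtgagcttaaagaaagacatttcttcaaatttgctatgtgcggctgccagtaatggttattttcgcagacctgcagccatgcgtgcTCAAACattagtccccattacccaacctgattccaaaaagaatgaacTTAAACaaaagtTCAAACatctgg
The rec8 stretch holds 6 sites, that of mei4 8 and that of mug9 7.

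Over all 5898 tested features with a span in RefSeq, 1.79 sites fell on each kilobase and 18.6% had at least 3 sites within 300 bases. The 13 called Mmi1 targets with a span had 6.19 sites per kilobase, and 100% had such a cluster, as did 100% of 10 called genes for linear elements and recombination. The latter share leaves out the uncalled genes of its list and counts the targets mcp7, meu13 and rec10 again, so it gives no separate support. The 225 higher coding genes had a cluster in 30.2% and the 285 lower coding genes in 16.8%. Among lncRNAs the share was 19.9% in the higher and 15.8% in the lower group, against 18.0% in all. The targets had been listed for binding Mmi1, so their density follows from the choice of the list and is given as a description.

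The share of coding genes that were higher in red1Δ went up only with dense sites. It was 4.30% of 419 genes with no site, 4.66% of 708 genes with 3 sites in their densest 300 bases, 8.44% of 154 genes with 4, 34.5% of 29 genes with 5 and 75.0% of 16 genes with 6 or more. Of the 12 higher genes in the last class, 6 were not on the list, namely arp1, moa1, mug4, rec11, rec27 and rep1. Among these, moa1 passed the filter only through red1Δ. The 4 that were not called were mcp3, chs1, fft3 and gsf2. The fft3 gene, for a chromatin remodeller, had 81.0 and 76.1 scaled RPKM in red1Δ and 78.3 and 75.7 in mug174Δ with 6 sites in 300 bases, so a dense cluster did not always go with a difference. A site count is a match of letters and not a measured binding.

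**Figure D3:**
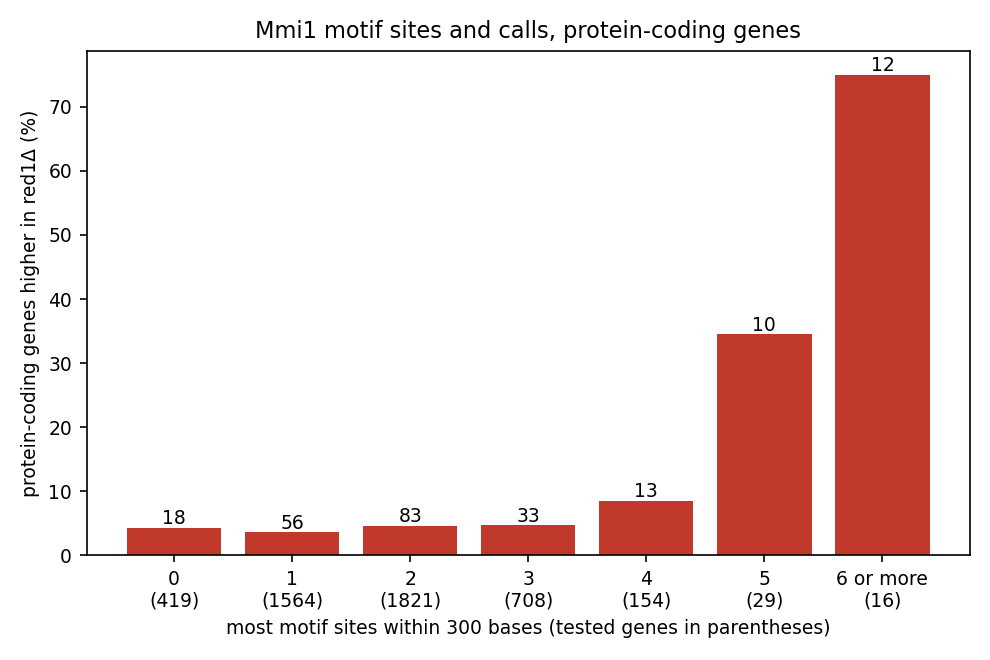
Percentage of tested coding genes that were higher in red1Δ (vertical axis) by the largest number of TNAAAC sites within 300 bases (horizontal axis). The higher share stays near 4% up to 3 sites and reaches 34.5% with 5 sites and 75.0% with 6 or more, classes of 29 and 16 genes.

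Genes for meiotic chromosome structure were also higher. Of 14 tested genes for linear elements and meiotic recombination, 10 were higher in red1Δ and 0 lower, with a median log2 difference of 1.60. Of these, mcp7, meu13 and rec10 were Mmi1 targets as well. The count was 6 without mug174Δ replicate 2. The linear element gene rec25 had 89.5 and 76.8 scaled RPKM in red1Δ against 14.4 and 14.8 in mug174Δ (2.46 ± 0.12), and rec27, for its partner protein, had 38.1 and 42.3 against 10.1 and 10.1 (1.94 ± 0.16). The gene for the meiotic cohesin subunit Rec11 had 30.4 and 31.9 against 5.83 and 5.92 (2.31 ± 0.29). The libraries of each mutant agreed closely in these genes, and WT lay lower still, at 4.198 and 4.66 for rec25 and at 1.22 and 2.74 for rec11. The meiotic checkpoint kinase gene mek1 had 37.2 and 46.1 against 5.79 and 7.26 (2.58 ± 0.19). The break formation gene rec15, at 37.1 and 39.7 against 10.3 and 8.85, was called in 11 of 17 alternative fits, and rec11 lost its call in 1.

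Of 11 tested genes for meiotic chromosome movement and segregation, 5 were higher and 0 lower, with a median of 0.69. The higher share was 45.5%, against 7.38% of all features, of which 5.65% were lower. Among the 5, rec8, ssm4 and rec11 have been given above. The moa1 gene, whose product directs sister kinetochores to the same pole in meiosis I, had 16.5 and 19.6 scaled RPKM in red1Δ against 0.700 and 1.25 in mug174Δ (3.67 ± 0.33). Outside red1Δ, moa1 reached 1 RPKM as deposited in mug174Δ replicate 2 alone. It passed the filter only through red1Δ, so its call gives no support. In bqt1, for a protein that gathers telomeres at the spindle pole body, the values were 52.5 and 46.9 against 26.4 and 20.4. The regulators of sexual differentiation had 7 of 17 higher (41.2%) and 0 lower (median 0.43). They included mei4, the bZIP gene atf31 (55.1 and 54.6 against 27.98 and 25.6, 1.02) and the protein kinase A genes pka1 (81.0 and 87.2 against 58.1 and 56.2, 0.55) and cgs1 (17.7 and 16.6 against 10.7 and 9.93, 0.71). The calls of atf31, pka1 and cgs1 were each lost in at least 1 alternative fit.

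Groups of the later steps were uneven in their calls. Of 20 spore formation and spore wall genes, spo5 alone was higher and 0 were lower, with a median of 0.07. Of 98 other genes named mug or meu for their meiotic induction, 21 were higher and 4 lower (21.4% and 4.08%, against 7.38% and 5.65% of all features), with a median of 0.09 and with mug174 itself among them. Of 20 genes for pheromones, receptors and mating, 1 was higher. This was mfm1, a gene for the M-factor pheromone precursor, with 73.0 and 56.1 scaled RPKM in red1Δ against 26.8 and 21.8 in mug174Δ (1.39 ± 0.17), a call lost in 1 alternative fit. Among mating type markers, 1 of 8 tested M-cell genes (mfm1) was called, with 6 at an unadjusted p under 0.05 and 1 called with voom weights. Their median was -0.47, and 6 of the 8 had both red1Δ libraries below both mug174Δ libraries, unlike mfm1. Over all features this held for 31.9%. Limma called 0 of 6 P-cell genes and 0 of 5 strain markers, with 1 of each at an unadjusted p under 0.05 and 0 called with voom weights.

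Further genes were chosen after their values were seen. The karyogamy gene tht2 had 135 and 129.8 scaled RPKM in red1Δ, 13.9 and 10.96 in mug174Δ, and 1.62 and 4.03 in WT (log2 difference 3.37 ± 0.34). The dynactin gene arp1 had 67.1 and 67.5 against 11.7 and 10.4 (2.55 ± 0.14), and the meiotic dynein intermediate chain gene dic1 had 43.4 and 46.1 against 11.9 and 9.21 (2.05 ± 0.15). The gene SPCC1442.04c, annotated as a meiotic recombination protein, had 340.4 and 298 against 51.2 and 47.8 (2.67 ± 0.11), and rep1, for an activator of premeiotic DNA synthesis genes, had 40.4 and 38.9 against 14.5 and 10.0 (1.68 ± 0.20).

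Small nucleolar RNAs were the second large group. Of 48 tested snoRNAs, 25 were higher in red1Δ and 1 was lower, with a median log2 difference of 1.28. Box H/ACA snoRNAs guide the conversion of uridine to pseudouridine in rRNA and end shortly after a conserved ACA. Of the 16 whose RefSeq product names this class, 14 were higher and 0 lower, with a median of 2.81. The count was 12 to 14 over all alternative fits. Of the 32 other snoRNAs, mostly of the box C/D class that guides methylation or with no class in the product name, 11 were higher and 1 lower (median 0.73), and 4 were higher without mug174Δ replicate 2.

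The H/ACA RNAs snR46, snR33, sno12 and snR91 are shown as annotated in ASM294v3, with the ACA that stands 3 bases before the end in capitals, since each had a log2 difference above 3 and carries an ACA at that place. The RNAs snR10 (log2 difference 3.82) and snR42 (3.13) have no ACA there and are not shown. The snR46 gene is III:1717920-1718087 on the minus strand, snR33 is II:2447904-2448048 on the minus strand, sno12 is III:583416-583605 on the plus strand and snR91 is I:3316466-3316609 on the minus strand.
snR46: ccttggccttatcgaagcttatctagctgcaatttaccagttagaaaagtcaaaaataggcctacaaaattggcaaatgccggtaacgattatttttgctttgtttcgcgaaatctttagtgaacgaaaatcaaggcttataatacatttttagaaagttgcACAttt
snR33: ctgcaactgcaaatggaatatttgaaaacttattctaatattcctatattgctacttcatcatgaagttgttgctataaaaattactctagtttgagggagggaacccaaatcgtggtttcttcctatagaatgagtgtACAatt
sno12: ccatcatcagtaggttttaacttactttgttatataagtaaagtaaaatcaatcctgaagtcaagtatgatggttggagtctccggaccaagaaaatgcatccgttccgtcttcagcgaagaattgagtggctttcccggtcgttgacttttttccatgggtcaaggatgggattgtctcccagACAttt
snR91: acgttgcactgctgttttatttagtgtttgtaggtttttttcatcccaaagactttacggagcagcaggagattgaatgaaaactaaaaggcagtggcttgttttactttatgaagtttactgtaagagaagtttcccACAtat
An ACA exactly 3 bases before the annotated end was found in 7 of the 16 H/ACA RNAs and in 2 of the 32 others, snR30 and SPNCRNA.1709.

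The snR46 RNA had 85.5 and 92.5 scaled RPKM in red1Δ, 3.24 and 3.86 in mug174Δ, and 6.21 and 6.29 in WT, a log2 difference of 4.47 ± 0.13 (adjusted p = 3.2e-05). The snR33 RNA had 176 and 169.8 in red1Δ, 12.1 and 15.3 in mug174Δ and 51.6 and 49.6 in WT (3.62 ± 0.12). In both, the mug174Δ libraries were the lowest, the red1Δ libraries the highest, and WT lay between without overlap. The snR91 RNA differed in this, with 27.3 and 24.8 in red1Δ, 2.10 and 2.25 in mug174Δ and 0.852 and 1.38 in WT (3.31 ± 0.21). Among other H/ACA RNAs, sno12 had 134 and 96.9 in red1Δ against 12.4 and 6.25 in mug174Δ (3.62 ± 0.34), and snR95 had 273 and 298 against 37.1 and 36.5 (2.94 ± 0.28). The exceptions were snR101, with 88.5 and 90.9 against 100.1 and 105, and snR96, at 0.756 and 1.39 against 0.287 and 0.767. Neither of these passed the test.

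The U17 RNA snR30, which acts in early cleavage of pre-rRNA, is known as a box H/ACA RNA but stands among the 32 others because its product name gives no class. It had 342 and 569 scaled RPKM in red1Δ against 143 and 131 in mug174Δ (1.69 ± 0.27), although the call was lost in 2 alternative fits. The snoU14 RNA had 455 and 538 against 559 and 643 and did not pass the test. A candidate snoRNA, SPNCRNA.498, was the lower one, with 32.5 and 21.0 against 47.9 and 44.3, and it was called in 7 of 17 alternative fits. The snoR38 RNA had 18.7 and 19.1 in red1Δ, 40.1 and 44.5 in mug174Δ and 1.66 and 5.35 in WT, but its adjusted p was 0.12. Both mutants stood above WT in it. Both red1Δ libraries lay below both mug174Δ libraries, as they did in 31.9% of all features. The host transcript of a snoRNA cluster, psf3-antisense-1, had 53.7 and 40.6 in red1Δ against 12.8 and 13.4 in mug174Δ (1.80 ± 0.17). All snoRNAs together took 0.0577% and 0.0742% of reads in red1Δ and 0.0258% and 0.0254% in mug174Δ. Library preparation retains short RNAs only in part, so these are levels of the reads that reached the libraries, and mature RNAs and longer precursors were not separated.

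The features annotated as regulatory RNAs of phosphate genes were higher in red1Δ. Transcription of prt, prt2 and nc-tgp1 through the promoters of pho1, pho84 and tgp1 keeps those genes silent when phosphate is plentiful. In the deposited coordinates the prt feature holds the whole of pho1 (II:4447557-4448918) and the prt2 feature the whole of pho84 on the same strand, so reads of the upstream RNA and of the gene cannot be told apart in either. The prt feature (SPNCRNA.1712, II:4446359-4448918) had 51.9 and 55.0 scaled RPKM in red1Δ, 2.08 and 1.75 in mug174Δ, and 1.08 and 1.80 in WT, a log2 difference of 4.48 ± 0.22 (adjusted p = 0.00023). The nc-tgp1 RNA had 122 and 79.4 against 16.8 and 15.7 (2.57 ± 0.33), and prt2 had 48.4 and 40.6 against 13.8 and 15.7 (1.56 ± 0.13). All red1Δ values of the 3 features lay above all mug174Δ values, as they did in 30.7% of all features. The glycerophosphodiester transporter gene tgp1 was also higher, at 31.2 and 31.6 against 21.0 and 19.5 (0.62 ± 0.10). The pho1 and pho84 genes themselves were listed at 0 in all 6 libraries. Of 340 coding genes at 0 in all libraries, 12 lie within another feature of their strand, against 3 of 4795 others, so the levels of pho1 and pho84 cannot be read from these values.

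In the list of 10 tested phosphate genes, 5 were higher and 1 was lower, and 2 and 0 were so without mug174Δ replicate 2. The lower gene was vtc4, for a subunit of the polyphosphate polymerase, at 26.9 and 20.9 scaled RPKM in red1Δ against 54.1 and 48.9 in mug174Δ (-1.10 ± 0.14). The kinase gene csk1 was higher by 0.41, a call that held in 9 of 17 alternative fits, and aps1, pho7, pho4 and asp1 did not pass the test. Chosen after their values were seen, other genes of the polymerase complex were lower as well, with 308 and 197 against 747 and 596 for nrf1 (-1.43 ± 0.23) and 68.6 and 54.0 against 141 and 128 for vtc2 (-1.14 ± 0.14). The same holds for 2 annotated inorganic phosphate transporters. The gene SPAC23D3.12 had 12.9 and 16.2 against 60.6 and 43.4 (-1.79 ± 0.20), and SPBC1683.01 had 114 and 103 against 258 and 198 (-1.05 ± 0.16). The calls of nc-tgp1, tgp1, vtc4, nrf1, vtc2 and SPBC1683.01 were each lost in 1 or 2 alternative fits.

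The lncRNAs were unevenly divided between the mutants. Of 1058 tested, 172 were higher in red1Δ and 38 lower (median 0.26), against 226 and 285 of 4725 coding genes (median -0.04). Of 557 that overlap a coding gene on the other strand, 61 were higher and 9 lower, and of 501 with no such gene 111 and 29. Without mug174Δ replicate 2, 38 lncRNAs were higher and 11 lower. The SPNCRNA.403 RNA had 16.6 and 22.2 scaled RPKM in red1Δ against 1.59 and 1.24 in mug174Δ (3.37 ± 0.21), and meu10-antisense-1 had 26.5 and 17.7 against 3.31 and 3.71 (2.47 ± 0.26). The nam RNAs take their name from their association with Mmi1. The nam1 RNA, which lies upstream of the MAP kinase pathway gene byr2, had 44.4 and 74.5 against 8.95 and 9.61 (2.57 ± 0.30). The nam2 RNA had 42.03 and 48.5 against 10.99 and 11.2 (1.98 ± 0.12), and nam3, an RNA near the end of chromosome II, had 44.04 and 62.6 against 19.7 and 20.9 (1.35 ± 0.17), a call lost in 2 alternative fits. Chosen after its values were seen, SPNCRNA.1197 had 129.9 and 164 against 12.9 and 15.4 (3.33 ± 0.28).

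Centromeric non-coding RNAs showed the reverse and were the strongest group on the mug174Δ side. The outer repeats of fission yeast centromeres are transcribed at a low level and are normally silenced by RNAi and by methylation of histone H3 at lysine 9. Of 18 tested centromeric lncRNAs and small non-coding RNAs, 12 were lower in red1Δ and 0 higher, with a median log2 difference of -1.92. The lower count was 6 without mug174Δ replicate 2, 9 without mug174Δ replicate 1 and 7 of the 8 that passed a filter at 5 RPKM. Those 8 passed the filter at 5 RPKM only through the mug174Δ libraries, so the 7 calls among them give no support. At the main filter of 1 RPKM the same holds for SPNCRNA.360, SPNCRNA.372, SPNCRNA.373 and nam6, which are among the 12. Outside mug174Δ, SPNCRNA.373 and nam6 reached 1 RPKM in WT replicate 2 alone, so they too needed the mug174Δ libraries to pass. The summed level of the 28 listed was 35.3 and 28.8 scaled RPKM in red1Δ, 173 and 246 in mug174Δ, and 27.7 and 33.5 in WT. The red1Δ and WT libraries thus overlapped, and mug174Δ lay above both.

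All 6 tested RNAs of centromere I were lower (median -3.26), 6 of 10 of centromere II and 0 of 2 of centromere III. Those of centromere II include SPNCRNA.360, SPNCRNA.372, SPNCRNA.373 and nam6, whose calls give no support. The SPNCRNA.234 RNA (I:3786105-3787136 in the deposited coordinates) had 1.91 and 1.47 scaled RPKM in red1Δ, 30.8 and 44.1 in mug174Δ, and 0.892 and 1.02 in WT, a log2 difference of -4.10 ± 0.23 (adjusted p = 0.00038). The SPNCRNA.231 RNA (I:3761023-3762114) had 0.974 and 0.761 against 19.6 and 23.9 (-4.02 ± 0.21), and nam5 (I:3753730-3754811) had 2.41 and 2.53 against 31.6 and 48.1 (-3.74 ± 0.24). For each the lowest mug174Δ value lay above the highest red1Δ and WT values. The boundary RNAs IRC1-L and IRC1-R, which flank centromere I, had smaller differences of -1.26 ± 0.21 and -1.10 ± 0.26, with calls held in 15 and 9 of 17 alternative fits. On chromosome II, SPNCRNA.362 had 2.55 and 2.93 against 19.4 and 27.9 (-2.88 ± 0.23) and SPNCRNA.371 had 4.02 and 4.58 against 13.7 and 24.0 (-1.96 ± 0.27).

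The nam5 and nam6 RNAs each held 9 TNAAAC sites, with 5 in their densest 300 bases, although they were lower and not higher in red1Δ. The nam6 RNA of centromere II had 0.831 and 0.808 scaled RPKM in red1Δ against 4.01 and 6.75 in mug174Δ (-2.11 ± 0.34), a call lost in 2 of 16 alternative fits. The 2 RNAs of centromere III, SPNCRNA.482 and SPNCRNA.485, stayed between 1.23 and 2.05 in the mutants and did not pass the test, and in each both WT libraries lay above every mutant library. Centromeric repeats share sequence between chromosomes, and no source used here says how reads with several positions were counted, so the RNA of a single repeat is uncertain. Of 11 tested genes of the RNAi machinery limma called 0, with 0 at an unadjusted p under 0.05 and 0 called with voom weights. Of 11 genes for methylation of histone H3 at lysine 9, HP1 proteins and the SHREC complex, 1 was higher (9.09%, against 7.38% of all features). This was the HP1 gene chp2 (56.5 and 53.9 against 42.1 and 44.2, 0.35), a call held in 7 of 17 alternative fits.

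**Figure D4:**
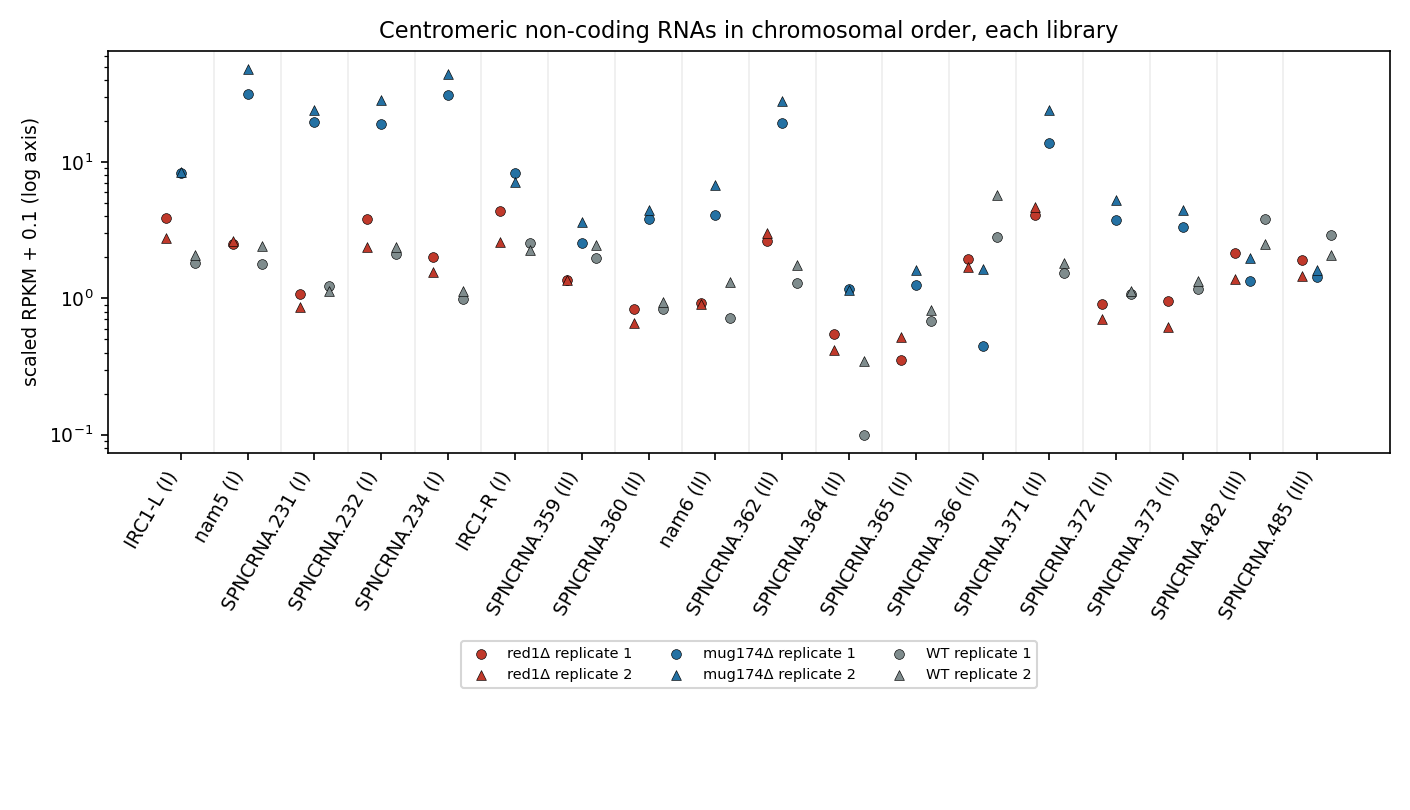
Levels of the 18 tested centromeric non-coding RNAs in each library, as scaled RPKM + 0.1 on a log axis, in chromosomal order with the chromosome in brackets. The mug174Δ points stand above the red1Δ and WT points on centromere I, and for the RNAs of centromere III the mutants overlap and WT lies above them.

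Within 100 kb of the ends of chromosomes I and II, 9 of 104 coding genes were higher in red1Δ and 9 lower, or 8.65% each against 7.38% and 5.65% of all features. Of 38 non-coding features there, 8 were higher and 6 lower (21.1% and 15.8%), of which 2 and 3 were left without mug174Δ replicate 1. The telomere-linked helicase gene tlh1 had 5.17 and 2.37 scaled RPKM in red1Δ against 20.0 and 16.1 in mug174Δ (-2.19 ± 0.32), and WT had 7.35 and 8.24. Its near-identical copy tlh2 had 5.05 and 2.35 against 19.8 and 16.1 (-2.21 ± 0.31), and the values of the pair cannot be assigned to either gene. The calls of tlh1 and tlh2 were lost in 2 alternative fits. The malic enzyme annotation SPAC750.08c had 0.155 and 0.213 against 9.87 and 6.44 (-3.63 ± 0.29), with near-copies in SPAC212.09c and SPBCPT2R1.07c that gave almost the same values. In these the red1Δ values lay below WT, which had 1.52 and 1.15 for SPAC750.08c. A contrast was given by SPAC750.07c, which was highest in WT at 36.8 and 41.2, intermediate in mug174Δ at 12.5 and 9.43 and lowest in red1Δ at 2.43 and 2.23 (-2.01 ± 0.17). On the higher side, the lncRNA SPNCRNA.281 had 7.37 and 11.2 against 1.27 and 1.65 (2.30 ± 0.26).

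Ribosomal RNA differed by class. All 6 features for 5.8S and 28S rRNA were lower in red1Δ (median -0.98), whereas 5 of 25 tested 5S rRNA genes were higher and 0 lower (median 0.76). With the 4 mutant libraries only, 3 of the 5S genes were higher, and 3 were called with voom weights. Among the 5, SPRRNA.30 and SPRRNA.38 reached 1 RPKM as deposited only in red1Δ, so their calls give no support. The 5.8S gene SPRRNA.52 had 307 and 314 scaled RPKM in red1Δ, 860.1 and 913 in mug174Δ, and 1843 and 1786 in WT (-1.51 ± 0.10). The 28S feature SPRRNA.47, chosen after its values were seen, had 1643 and 1599.6 against 3299 and 2723 and was called in 12 of 17 alternative fits. The copies are nearly identical and were measured after a depletion or selection step that acts on rRNA itself, and the part of that step in the difference was not tested. Of 25 tested tRNAs, 5 were higher and 0 lower (median 1.02), but 3 were higher with the 4 mutant libraries only and 2 were called with voom weights. The called tRNAs SPATRNALYS.05, scn2 and SPBTRNALYS.09 had 2 to 5 reads in the red1Δ libraries and 0 in the others, and 100% of their sequence words recur elsewhere in the genome. These tRNAs passed the filter only through red1Δ, so their calls give no support.

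Genes for growth and energy metabolism gave smaller differences, most of them on the lower side. The lower share was 25% in the respiratory chain list, 11.8% in the proteasome list and 11.6% in the mitochondrial ribosome list. Over all features 5.65% were lower and 7.38% higher. Of 36 nuclear genes for the respiratory chain and ATP synthase, 9 were lower and 0 higher (median -0.29), but the count was 1 without mug174Δ replicate 1, 0 without mug174Δ replicate 2 and 5 without either WT library or without scaling. The ATP synthase gene atp16 had 256 and 220.04 scaled RPKM in red1Δ against 450.2 and 491 in mug174Δ (-0.98 ± 0.11), and the cytochrome oxidase gene cox6 had 339.6 and 313 against 522 and 525 (-0.68 ± 0.09). In atp16 WT lay near mug174Δ with 409.6 and 428, while in cox6 WT was between the mutants with 407 and 434. Of 34 proteasome genes 4 were lower and 0 higher (median -0.23), of which rpt1, for a base ATPase, had 214 and 194 against 303 and 324 (-0.62 ± 0.09). Of 43 mitochondrial ribosomal protein genes 5 were lower and 1 higher, and mrpl31 had 83.2 and 70.1 against 144 and 143 (-0.91 ± 0.10). With the 4 mutant libraries only, 2 proteasome and 2 mitochondrial ribosomal protein genes were lower. Each of the calls of atp16, cox6 and rpt1 was lost in at least 1 alternative fit.

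Ribosome biogenesis genes rested on the choice of libraries. Of 68 tested, 6 were lower (8.82%, against 5.65% of all features) and 0 higher, with a median of -0.43. Without red1Δ replicate 1 there were 50 lower, without red1Δ replicate 2 there were 3, without mug174Δ replicates 1 and 2 there were 0 and 1, and 3 without either WT library. The nucleolar gene nop2 had 83.9 and 66.6 scaled RPKM in red1Δ against 152 and 140.5 in mug174Δ (-0.96 ± 0.15), and imp4 had 59.3 and 51.6 against 109 and 97.5 (-0.90 ± 0.11). In both the red1Δ replicate 2 was the lowest library of the mutants. Ribosomal protein genes had medians of -0.28 in both subunits, with 2 higher and 1 lower of 82 on the list for the large subunit. That list also holds rpp1, rpp40 and rpp21, whose place in the subunit was not checked. None of these was called. In the small subunit limma called 0 of 50, with 2 at an unadjusted p under 0.05 and 1 called with voom weights. The largest difference was that of rpl3002, a gene for eL30, at 1012 and 524 against 253 and 237 (1.57 ± 0.28), while its paralog rpl3001 had 1510.5 and 1060.3 against 1636 and 1624 and did not pass the test. The calls of nop2, imp4 and rpl3002 were each lost in 1 or 2 alternative fits.

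**Figure D5:**
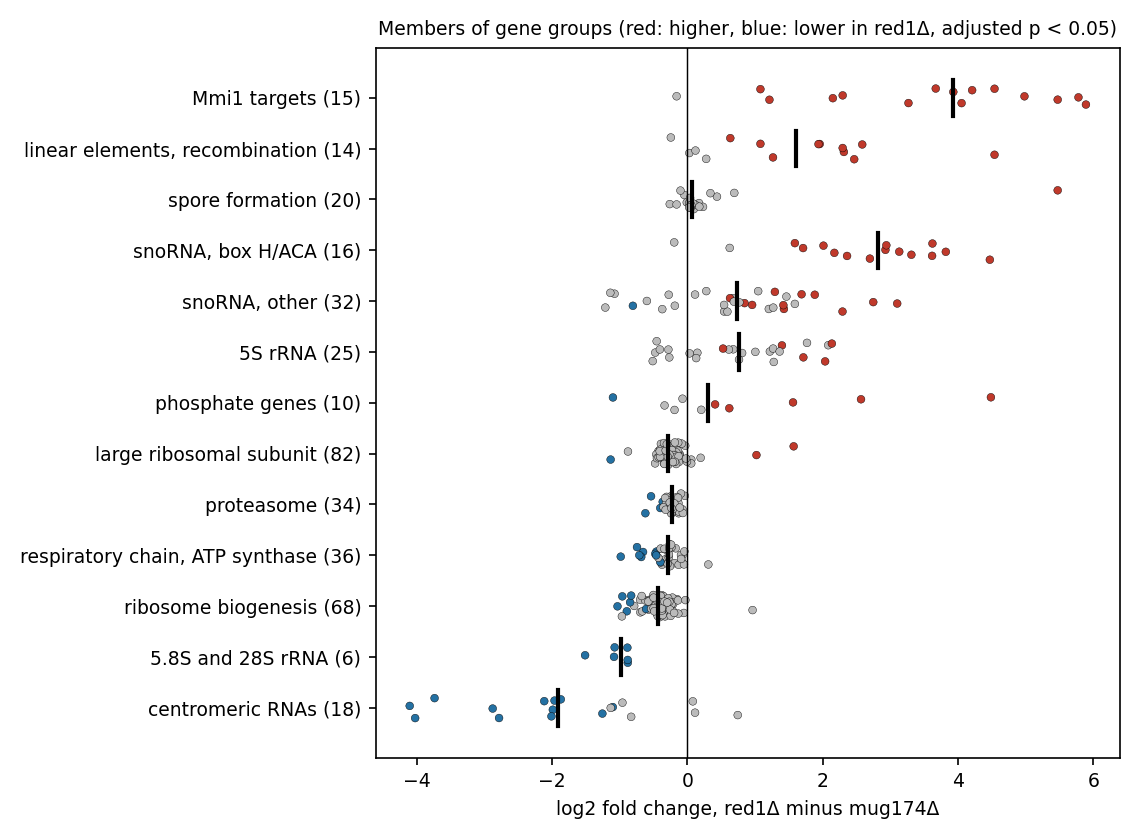
For each gene group, the log2 difference between red1Δ and mug174Δ of its tested members (points, horizontal axis) with the median of the group. The median is 3.93 for the Mmi1 targets, 2.81 for box H/ACA snoRNAs and -1.92 for centromeric RNAs, against -0.01 for all features.

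Other metabolic groups differed in their shares of calls, which were 7.38% higher and 5.65% lower over all features. In sulfate assimilation, 1 of 15 genes was higher and 2 lower (6.67% and 13.3%), and the ATP sulfurylase gene sua1 had 279 and 192 scaled RPKM in red1Δ against 658 and 656 in mug174Δ (-1.50 ± 0.18). Of 51 amino acid biosynthesis genes 1 was higher and 5 lower (1.96% and 9.80%). Of 29 genes of the core stress response 3 were higher and 5 lower (10.3% and 17.2%), and the glutathione transferase gene gst2 had 523 and 563 against 1029 and 1098, with 252 and 272 in WT (-0.97 ± 0.10). Here red1Δ lay between WT and mug174Δ. The hexose transporter genes had 1 of 7 higher, ght5, which was called in 8 of 17 alternative fits. Glycolysis genes had a median of -0.48 with 1 of 15 higher and 0 lower. In the copper and zinc list 1 of 8 was lower, ctr5, a copper transporter gene with 389.9 and 429.9 against 768 and 722 (-0.86 ± 0.10), whose annotated span overlaps SPNCRNA.923 on the other strand, an RNA that was lower too (142 and 149.7 against 296 and 269). Limma called 0 of 20 heat shock chaperone genes (1 at an unadjusted p under 0.05, 0 with voom weights), 0 of 15 iron uptake genes (1 and 0), 0 of 18 nitrogen starvation genes (6 and 2), 0 of 8 histone genes (3 and 1) and 0 of 36 translation factor genes (13 and 0).

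Groups tied to chromosomes and the cell cycle were divided. Of 12 genes driven by the MBF factor at the start of S phase, 3 were higher and 0 lower (median 0.37), and spd1, for an inhibitor of ribonucleotide reductase, had 420.5 and 528 scaled RPKM in red1Δ against 297 and 327 in mug174Δ (0.60 ± 0.14). Of 27 kinetochore genes 2 were higher and 3 lower (7.41% and 11.1%, against 7.38% and 5.65% of all features). The MIND complex gene mis14 had 54.0 and 58.0 against 31.7 and 31.8 (0.81 ± 0.09), whereas cnp3, for the CENP-C protein, had 101 and 106 against 152 and 161 (-0.59 ± 0.08). Of 23 core autophagy genes 2 were higher (8.70%), atg16 with 112 and 121 against 83.3 and 80.3 (0.51 ± 0.09) and atg1 with 45.2 and 46.4 against 34.96 and 34.2 (0.40 ± 0.08). The 13 copies of the Tf2 retrotransposon had a median of 0.72, but limma called 0 of them, with 0 at an unadjusted p under 0.05 and 0 called with voom weights. The calls of spd1, cnp3, atg16 and atg1 were each lost in at least 2 alternative fits.

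Genes for components of RNA elimination were called in small numbers. Of 11 tested MTREC and Mmi1 genes, 1 was higher and 2 were lower (9.09% and 18.2%, against 7.38% and 5.65% of all features). The lower genes included red1 itself, whose call was fixed by its deletion and says nothing of the group. Apart from red1, the list held 1 call in each direction. The red5 gene, for a zinc finger subunit, was higher, at 171 and 149 scaled RPKM in red1Δ against 101 and 90.9 in mug174Δ (0.73 ± 0.11), and the cap-binding gene cbc1 was lower, at 51.4 and 42.7 against 69.0 and 73.1 (-0.59 ± 0.11). The mmi1 gene had 65.6 and 60.4 against 61.7 and 65.7 and did not pass the test, nor did mtl1, iss10, erh1, pla1, rmn1, pir2 and cbc2. Of 16 genes of the exosome and TRAMP, 3 were lower (18.8%, against 5.65% of all features) and 0 higher. With the 4 mutant libraries only, 1 was lower, and 2 were called with voom weights. In 11 of the 16 both red1Δ libraries lay below both mug174Δ libraries, as they did in 31.9% of all features. The lower genes included rrp41, for an exosome core subunit, with 69.4 and 60.2 against 105 and 105 (-0.69 ± 0.13). The calls of red5, cbc1 and rrp41 were each lost in at least 2 alternative fits.

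Splicing genes held few calls. Limma called 0 of 36 Prp and Cwf splicing factor genes, with 4 at an unadjusted p under 0.05 and 0 called with voom weights. Of 20 genes for Sm, Lsm and SMN proteins, 1 was higher (gem7, 0.85) and 1 lower (smd3, -0.60). These are 5% each, against 7.38% and 5.65% of all features. Of 4 tested features of the snRNA type limma called 0, with 1 at an unadjusted p under 0.05 and 0 called with voom weights, whereas mrp1, the RNA of RNase MRP, had 78.9 and 91.8 scaled RPKM in red1Δ against 54.7 and 46.7 in mug174Δ (0.75 ± 0.14). Of 2485 genes without introns 111 were higher and 128 lower (4.47% and 5.15%), and of 975 with 1 intron 56 and 50 (5.74% and 5.13%). Of 1183 with 2 to 5 introns 53 were higher and 100 lower (4.48% and 8.45%), and of 82 with 6 or more 6 and 7 (7.32% and 8.54%). Over all coding genes the shares were 4.78% and 6.03%. The lower share was greater in genes with 2 or more introns, while the higher share followed no order. With the 4 mutant libraries only, 0 of the 82 were lower. These values count exonic reads, and retained introns were not measured. The calls of gem7, smd3 and mrp1 were each lost in at least 3 alternative fits.

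The neighbours of the deleted genes were examined since a replaced gene can alter its surroundings. The centrin gene cdc31, which lies beside mug174 on chromosome III and is transcribed away from it, had 91.4 and 85.3 scaled RPKM in red1Δ, 175 and 174 in mug174Δ, and 104 and 97.0 in WT (-0.98 ± 0.08, adjusted p = 0.0017). The mug174Δ libraries alone stood apart, and red1Δ was close to WT. The next gene, srp68, was lower by the same comparison at 112 and 97.9 against 148 and 149 (-0.50 ± 0.09), a call held in 12 of 17 alternative fits. Beside red1, mcp3-antisense-1 was higher at 8.05 and 9.12 against 5.19 and 5.50 (0.64 ± 0.15, called in 9 of 17 alternative fits), and mcp3, psp3 and asa1 did not pass the test. Whether the replacement cassettes had a part in these differences was not tested.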

How the data were processed

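RNA of vegetative cells of 3 strains was sequenced, with 2 libraries each. The authors deposited RPKM for each feature and library, without scaling factors between libraries. They also deposited log2 fold changes and p-values of each mutant against WT, which hold the study's own comparisons and were not used, and the feature lengths. No further per-sample values were present (0 columns). The study's methods describe HISAT2 alignment and poly(dT) selection, whereas STAR 2.5.3a, StringTie 1.3.1c and FastQC 0.11.6 stand in the submitters' processing notes and the labels name an rRNA depletion kit, so both steps are uncertain here. The read counter, the annotation and the use of strand were not given in the sources used here, and without strand a gene and its antisense partner cannot be told apart. RPKM times length gave whole reads for 100% of values within 0.01 reads, and a single read over 1000 bases equalled 0.0537 to 0.0604 RPKM. Depth covers counting error only.

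Libraries were brought to a common scale by median ratios, taken against the geometric mean over the libraries and over features above 0 in all of them. Features with at least 1 RPKM as deposited in 2 libraries were tested on log2(scaled RPKM + 0.5) with limma 3.58.1 (R 4.3.3, lmFit, contrast red1Δ minus mug174Δ, eBayes with trend, 2-sided, Benjamini-Hochberg over 5949 features, threshold 0.05). The WT libraries entered only the estimate of the spread, which had 3 residual degrees of freedom. Fold changes on this scale understate the change of low features. The test was tried on simulated data beforehand. Of 7001 identifiers, 6851 were matched to RefSeq (ASM294v3), from which spans, products and sequences were taken.

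The comparison, the gene lists and the alternatives were chosen with earlier results of these data known, so the lists are described by counts and medians without set tests. Named features were the deleted genes, the 15 higher and 15 lower features with the largest log2 difference among called features with non-overlapping libraries and a mean in the higher mutant of 5 RPKM or more, up to 4 called members per list and direction by smallest p, and every tested Mmi1 target, phosphate gene, MTREC gene, strain marker and neighbour of a deleted gene. Only some of the features outside this rule are marked as chosen after seeing values. Those chosen so without a mark include snoR38, snoU14, snR91, snR95, snR96, snR101, sno12, rec15, rpl3001, SPNCRNA.482 and SPNCRNA.485. The alternatives were no scaling, scaling on coding features, pseudocounts of 0.1 and 1, no filter, a filter at 5 RPKM, eBayes without trend, a replicate block, the 4 mutant libraries alone, voom weights on the whole reads, array weights per strain, an added fold threshold of 2 to the power 0.6, and each library left out. Applying them to 12 gene groups was added after the data had been seen.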

Additional observations from a re-analysis of the deposited data

How the results depend on the processing

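Main counts were 439 higher and 336 lower features. The higher count was 958 without scaling, 266 with the 4 mutant libraries only and 267 with array weights per strain. The lower count was 195 without scaling, 162 with the 4 mutant libraries only, and 188 with a log2 difference over 0.6 required as well. Leaving out 1 library gave 100 to 766 higher and 42 to 971 lower features; where a mutant keeps 1 library, that library is assumed to vary like the others. With the replicate number as a block, 567 were higher and 544 lower, and 38 of 68 ribosome biogenesis genes were lower in place of 6. The numbers share only a label, since the deviations of same-numbered libraries correlated at 0.06 for mug174Δ with red1Δ, 0.19 for WT with mug174Δ and 0.22 for WT with red1Δ. The causes of these moves were not tested. Of 204 named called features, 80 stayed past the threshold under every alternative that tested them, and over 3453 values 2921 kept their call, 532 lost it and 0 changed sign. With 2 libraries per strain and a mean spread of 0.296 on the log2 scale in red1Δ, small differences could not be detected, and RPKM near 0.06 rest on single reads in a feature of 1000 bases.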
